A study of Mus musculus with 22 samples.

Results

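The Hox genes measured here are all genes whose symbol is Hoxa, Hoxb, Hoxc or Hoxd followed by a number and nothing else, taken by name from the authors' gene table or from the mouse mm10 annotation. They are 38 of 24130 genes: 11 Hoxa, 10 Hoxb, 9 Hoxc and 8 Hoxd genes. The annotation holds 39, and Hoxd4 was not analysed here. Position within a cluster is given by the paralog number, and the members were grouped as anterior (groups 1 to 3, 8 genes), central (groups 4 to 8, 14 genes) and posterior (groups 9 to 13, 16 genes). The rule uses names only, but this gene family was chosen with earlier results of these data known.

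RNA was sequenced from 20 libraries of mouse embryonic fibroblasts (MEFs) at passage 2 that carried the OG2 transgene, in which Oct4 regulatory sequence drives a GFP reporter, on a mixed background of the strains 129SVJ, C57B6 and CBA. Every library was made from cells transfected for 2 days and then kept for the stated number of days, and each arm and day is 1 library, so no value below has a replicate. OvSvK cells received Oct4-VP16, Sox2-VP16 (the factors fused to the viral activation domain of VP16) and Klf4, and were sampled on days 0, 1, 2, 3 and 4. OSK cells received Oct4, Sox2 and Klf4 and were sampled on days 0, 1, 3, 5 and 7. Further OSK cells were kept without bFGF, without vitamin C, or without the GSK3 inhibitors CHIR-99021 and LiCl, and were sampled on days 3 and 7. GFP cells, sampled on days 1, 3, 5 and 7, are the control. Mouse embryonic stem cells (mESC), described as WT OG2ES, and a MEF sample are present only in the authors' table of normalized scores. Both are labelled as a re-analysis. The sources used here do not give the vector, the promoter that drove the factors or the part of the embryo that the fibroblasts came from. Library totals lay between 7872278 and 20720724 expected counts.

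Hox genes encode homeodomain transcription factors that give cells along the body axis their positional identity. They lie in clusters whose order on the chromosome matches the order in which they are used in the embryo, from anterior genes at the 3′ end, which are opened first and respond to retinoic acid and Wnt signals, to posterior genes at the 5′ end, which pattern the tail, the genital region and the ends of the limbs. Fibroblasts keep in culture much of the Hox pattern of the site they came from, whereas in pluripotent cells the clusters carry both activating and polycomb-type repressive histone marks and are largely silent. Hox proteins bind DNA together with the TALE homeodomain proteins Pbx and Meis, and Cdx factors activate central Hox genes.

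Promoters are shown for 6 members that passed a test below, to let their base composition and motifs be compared: Hoxa2, Hoxa5 and Hoxa9, which rose over the days of OSK; Hoxa11 and Hoxd10, which were lower in OSK than in GFP; and Hoxd8, whose course differed between OSK and GFP. Each sequence runs 5′ to 3′ on the gene's strand from 250 bases before to 50 bases after the transcription start (RefSeq, GRCm38.p6, the assembly of mm10), in lower case. Capitals mark matches, on either strand, to TGATNNAT (a Pbx-Hox site), AGGTCA (a nuclear receptor half-site) or CTTTGAT (a Tcf/Lef site).
Hoxa2, chr6:52164782-52165081 on the minus strand: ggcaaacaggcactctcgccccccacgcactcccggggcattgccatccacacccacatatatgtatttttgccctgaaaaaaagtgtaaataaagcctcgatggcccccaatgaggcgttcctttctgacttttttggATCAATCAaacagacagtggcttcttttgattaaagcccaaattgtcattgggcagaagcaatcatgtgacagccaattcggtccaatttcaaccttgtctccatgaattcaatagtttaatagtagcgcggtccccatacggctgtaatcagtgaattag
Hoxa5, chr6:52204538-52204837 on the minus strand: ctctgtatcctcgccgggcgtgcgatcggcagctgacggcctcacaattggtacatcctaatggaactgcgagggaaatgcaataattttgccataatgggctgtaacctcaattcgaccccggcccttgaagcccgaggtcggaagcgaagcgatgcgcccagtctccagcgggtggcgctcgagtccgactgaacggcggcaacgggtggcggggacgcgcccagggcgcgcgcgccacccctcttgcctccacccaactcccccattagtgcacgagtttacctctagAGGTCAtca
Hoxa9, chr6:52227321-52227620 on the minus strand: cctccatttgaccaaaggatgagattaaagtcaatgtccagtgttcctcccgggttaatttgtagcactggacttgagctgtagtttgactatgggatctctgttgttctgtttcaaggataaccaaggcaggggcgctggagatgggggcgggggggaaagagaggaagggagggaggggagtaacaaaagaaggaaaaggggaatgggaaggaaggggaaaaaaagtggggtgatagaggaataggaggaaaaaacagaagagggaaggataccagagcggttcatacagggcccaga
Hoxa11, chr6:52245761-52246060 on the minus strand: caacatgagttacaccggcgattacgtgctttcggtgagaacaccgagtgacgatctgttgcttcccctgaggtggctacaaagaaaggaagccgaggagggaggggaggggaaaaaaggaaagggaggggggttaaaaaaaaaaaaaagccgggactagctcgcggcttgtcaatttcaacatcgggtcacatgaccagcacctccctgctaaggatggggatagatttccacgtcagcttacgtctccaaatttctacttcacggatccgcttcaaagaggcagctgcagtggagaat
Hoxd10, chr2:74691641-74691940 on the plus strand: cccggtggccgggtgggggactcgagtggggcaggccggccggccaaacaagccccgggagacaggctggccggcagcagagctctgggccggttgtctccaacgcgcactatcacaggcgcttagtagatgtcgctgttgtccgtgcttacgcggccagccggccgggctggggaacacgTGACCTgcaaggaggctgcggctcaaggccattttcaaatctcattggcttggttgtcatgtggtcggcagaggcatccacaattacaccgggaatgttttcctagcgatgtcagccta
Hoxd8, chr2:74704365-74704664 on the plus strand: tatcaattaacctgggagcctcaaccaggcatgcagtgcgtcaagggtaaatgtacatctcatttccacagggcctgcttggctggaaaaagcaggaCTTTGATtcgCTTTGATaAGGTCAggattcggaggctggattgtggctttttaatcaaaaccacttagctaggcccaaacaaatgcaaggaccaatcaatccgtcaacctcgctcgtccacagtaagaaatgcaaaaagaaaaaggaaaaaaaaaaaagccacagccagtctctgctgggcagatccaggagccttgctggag
RefSeq promoters were at hand for 21 of the 38 members, and those of Hoxb9 and Hoxc6, among others, were not. These 21 held a median of 14 CpG dinucleotides, against 7 over 27025 mouse promoters of the same length. Among the sequences shown, Hoxa5 held 29 and Hoxd10 22, whereas Hoxa9 held 4 and Hoxd8 held 6. The nuclear receptor half-site was found in 6 of the 21 Hox promoters, or 28.6%, against 16% of all promoters. The Pbx-Hox letters were found in 3 of 21, or 14.3%, against 9.04% of all promoters, in Hoxa2, Hoxb1 and Hoxb8. CTTTGAT was found in 1 of 21, Hoxd8, at 2 places, against 3.72% of all promoters. The TATA box TATAAA was found in 2 of 21, or 9.52%, against 14.2% of all promoters, and the octamer ATGCAAAT, an Oct4 site, in none of 21, against 1.75%. These matches describe letters in a window and were not tested against the expression values.

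The factors followed the labels. Pou5f1, which encodes Oct4, was at 1104, 1438, 2029, 1792 and 1557 TPM on the 5 days of OvSvK and 96.1, 289.9, 181, 191 and 494 TPM on the 5 days of OSK, against 0, 0, 0 and 0.15 TPM on the 4 days of GFP. TPM is a share of all transcripts in a library, corrected for transcript length. The libraries fell into 2 sets: of the counts of Rpsa and its pseudogene Rpsa-ps10 together, the pseudogene took 3.32% to 7.78% in OSK days 1 to 7 and in GFP, against 0.125% to 0.478% in OvSvK, OSK day 0 and the omissions. OSK and GFP on matched days thus lie in 1 set, whereas the omissions and, on days 1 and 3, OvSvK lie in the other set than the OSK libraries they are set against. OvSvK and GFP lie in different sets on every day, and OSK day 0 lies in another set than the later OSK days. For these comparisons arm, or day, and set cannot be told apart. The OSK day 0 library stood apart in base composition, with the 20% of genes of lowest GC content at a mean of -1.53 and the 20% of highest at 1.11 on the log2 scale against the mean of the 20 libraries, and a scaling factor of 0.665, against at least 0.854 in every other library. GFP day 1 was next, at -1.0 and 0.25. Hox transcripts have a median GC content of 54%, against 49.9% over genes with a mean of at least 50 counts, and results over days are given below with and without these 2 libraries.

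Central Hox genes were the most abundant in these fibroblasts, and genes of groups 12 and 13 were low, at under 3 TPM in every library. Of the 38 members, 29 had a mean of at least 1 TPM over the 20 libraries: all 14 central, 6 of 8 anterior and 9 of 16 posterior genes. The most abundant was Hoxc6, which shapes the thoracic region, with a mean of 51.0 TPM and a range of 29.6 TPM in OSK day 1 to 87.2 TPM in OSK without GSK3 inhibitors on day 3. In the Hoxc cluster it was followed by Hoxc8 at 22.4 TPM and then by Hoxc5. In Hoxa the 3 highest were Hoxa7 at 35.5, Hoxa5 at 24.4 and Hoxa9 at 19.7 TPM, in Hoxb they were Hoxb9 at 26.4, Hoxb7 at 25.4 and Hoxb6 at 16.5 TPM, and in Hoxd, Hoxd8 at 10.6, Hoxd3 at 7.24 and Hoxd9 at 4.66 TPM. Hoxd thus had the lowest leading genes of the 4 clusters. Hoxa13, Hoxb13, Hoxc12, Hoxd1 and Hoxd12 stayed under 0.5 TPM in every library.

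**Figure D1:**
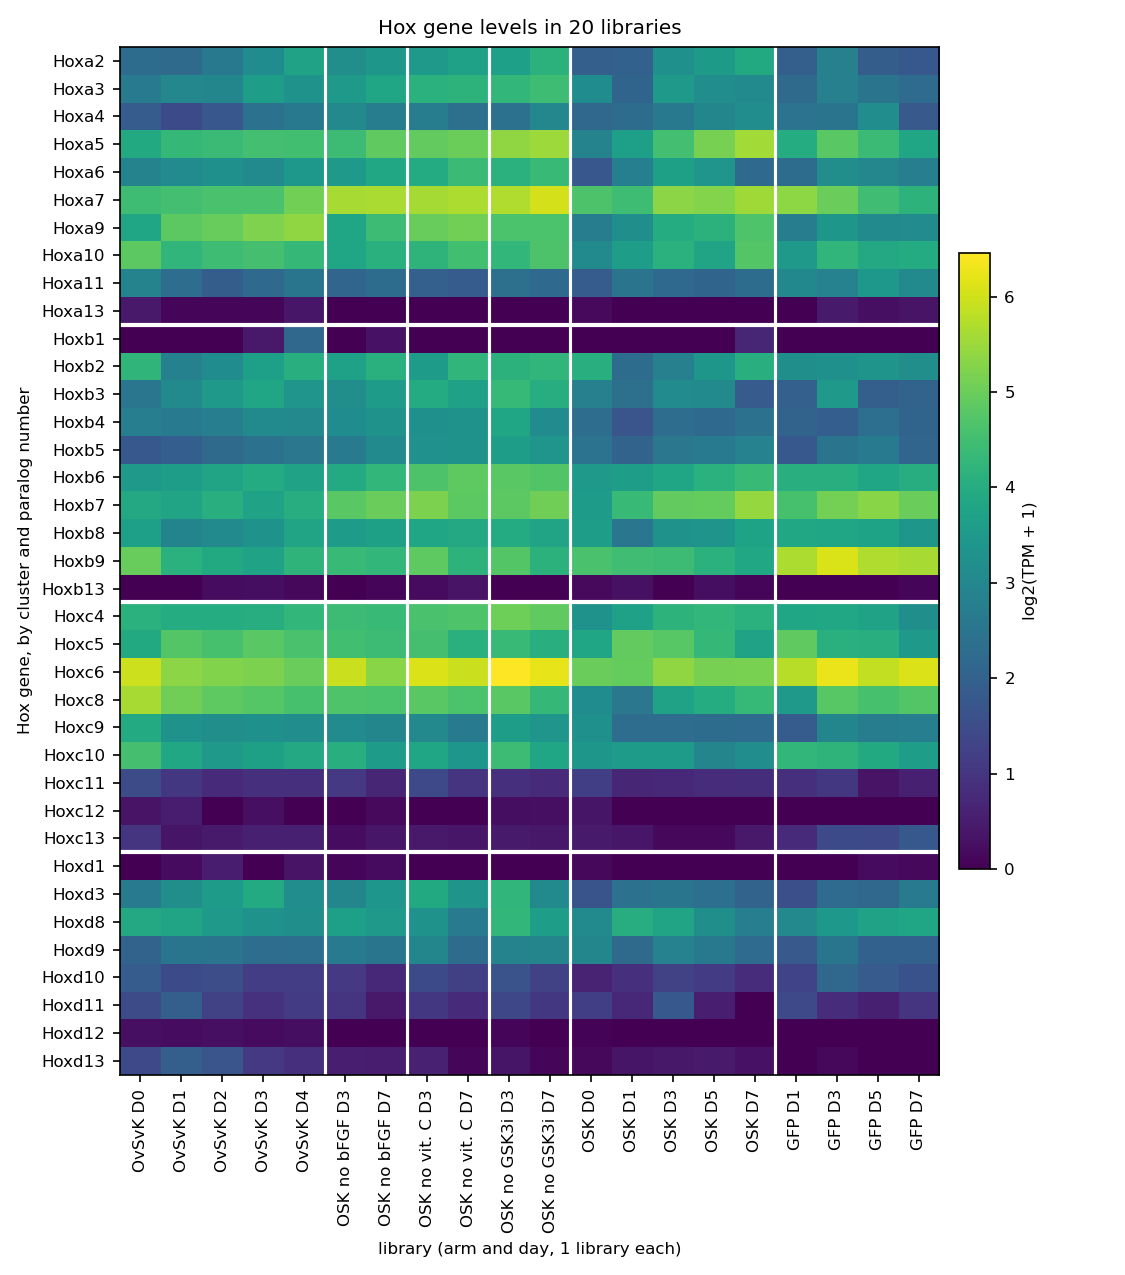
Level of the Hox genes, as log2(TPM + 1), in 20 libraries, with the arms separated by white lines and 1 library per column. Central genes such as Hoxa7 and Hoxc6 are bright in all arms, Hoxb9 is brightest in the 4 GFP libraries, and Hoxa13, Hoxb13, Hoxc12, Hoxd1 and Hoxd12 are dark in all arms.

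Some members of the low end were seen in 1 or a few arms. Hoxb1, a hindbrain gene and an early target of retinoic acid, had no counts on days 0, 1 and 2 of OvSvK, then 0.37 TPM on day 3 and 3.52 TPM on day 4. Outside OvSvK it was counted in OSK day 7, at 0.63 TPM, and in OSK without bFGF on day 7, at 0.25 TPM. The 95% Poisson interval of the OvSvK day 4 value was 2.4 to 5.01 TPM (31 counts), and a count of 0 in GFP day 1 allows up to 0.52 TPM (3 counts), both for counting error only. Hoxd13, which patterns the digits and the genital region, was at 1.71, 2.91, 2.25, 1.09 and 0.86 TPM in OvSvK, 0.11, 0.3, 0.34, 0.39 and 0.24 TPM in OSK and 0, 0.11, 0 and 0 TPM in GFP, so that all OvSvK libraries lay above all others. Hoxc13, a gene of hair follicles and the tail, was at 0.31, 0.11, 0.11 and 0.36 TPM in OSK on days 1, 3, 5 and 7, against 0.7, 1.75, 1.68 and 2.41 TPM in GFP on the same days, without overlap. It did not pass the filter on low counts of that comparison.

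The comparison of OSK with GFP asks which Hox genes differ between fibroblasts with and without the factors on the same day. The genes lower in OSK than in GFP were mostly posterior: Hoxb9, Hoxd10, Hoxa11, Hoxc10, and the central genes Hoxc6 and Hoxc8. Hoxb9, a gene of the posterior thorax and limb field, was at 21.5, 20.7, 16.4 and 13.3 TPM in OSK on days 1, 3, 5 and 7, against 49.6, 67.5, 50.6 and 48.5 TPM in GFP. All OSK values were below all GFP values, and the fitted log2 difference was -1.77 (SE 0.16, adjusted p = 0.00221, edgeR quasi-likelihood test with Benjamini-Hochberg adjustment). Here and below the SE was derived from the edgeR test. It reflects how a difference varied between days, or how values departed from a line, moderated over all genes tested. In bulk RNA fewer cells of a type and less RNA per cell cannot be told apart.

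Hoxd10, which acts in hindlimb motor neurons, was at 0.85, 1.37, 1.2 and 0.77 TPM in OSK, against 1.47, 3.44, 2.6 and 2.08 TPM in GFP, without overlap (log2 difference -1.34, SE 0.30, adjusted p = 0.0231 by edgeR). Hoxa11, a gene of the forearm and uterus, was at 4.58, 3.61, 3.24 and 3.91 TPM in OSK, against 7.12, 6.3, 9.9 and 7.34 TPM in GFP, also without overlap (-1.22, SE 0.26, adjusted p = 0.0212 by edgeR). Hoxc6 was at 29.6, 41.2, 34.1 and 34.5 TPM in OSK, against 53.5, 76.7, 57.6 and 68.7 TPM in GFP, and again the arms did not overlap (-1.04, SE 0.14, adjusted p = 0.00594 by edgeR). Hoxc8, a thoracic gene, was at 4.94, 12.2, 14.9 and 19.1 TPM in OSK, against 10.3, 26.4, 23 and 25.4 TPM in GFP. Its arms overlapped, with GFP day 1 below the later OSK days, and it was lower in OSK on each matched day (-0.96, SE 0.22, adjusted p = 0.0242 by edgeR). Hoxc10, a hindlimb gene, was at 10.9, 10.6, 6.66 and 7.93 TPM in OSK, against 18.4, 17.3, 14.3 and 11.1 TPM in GFP, with the highest OSK value just under the lowest GFP value (-0.94, SE 0.21, adjusted p = 0.0252 by edgeR).

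Of 28 Hox genes tested, 6 were lower in OSK, or 21.4%, where 14% of all 12680 genes tested were lower, and 0 were higher, where 16.8% of all genes were higher. By position, 4 of 8 posterior, 2 of 14 central and 0 of 6 anterior genes tested were lower in OSK. The median log2 difference was -0.73 for posterior, -0.03 for central and 0.39 for anterior genes, against 0.05 over all genes. By cluster, 3 of 6 Hoxc genes, 1 of 8 Hoxb, 1 of 4 Hoxd and 1 of 10 Hoxa genes were lower in OSK. Among members with a mean of at least 1 TPM in the comparison (28), the 4 OSK and 4 GFP libraries did not overlap with OSK lower for 5, or 17.9%, against 9.37% of all genes. They did not overlap with OSK higher for 1, or 3.57%, against 17.8% of all genes.

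Hoxa9, known from limb and blood progenitors, was at 8.29, 15.2, 16.9 and 24.8 TPM in OSK, against 5.54, 9.76, 7.4 and 7.62 TPM in GFP, higher in OSK on each matched day, and did not pass (log2 difference 0.98, SE 0.33, adjusted p = 0.0705 by edgeR). DESeq2 and limma on log2(TPM + 1) called it, and the split over all 28 with either was 2 higher and 6 lower, where DESeq2 called 21.1% of all genes higher and 18.2% lower, and limma 22.5% and 10.7%. Without day 3, or without day 5, Hoxb9 alone passed, without day 7 Hoxd10 did not pass, and all 6 kept their direction.

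**Figure D2:**
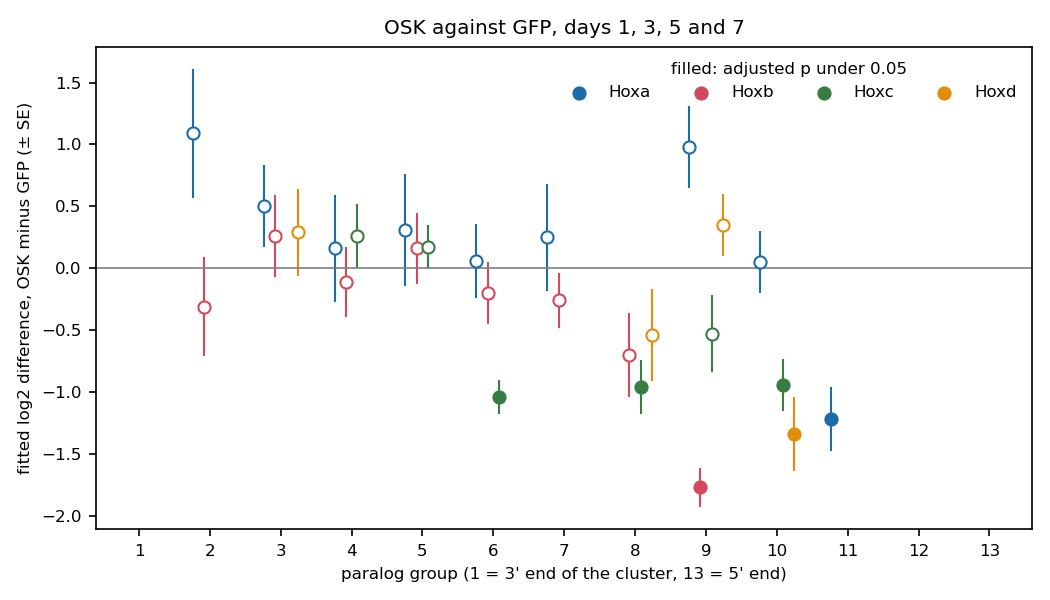
Fitted log2 difference, OSK minus GFP over days 1, 3, 5 and 7, for Hox genes tested, by paralog group and coloured by cluster. Bars are SEs derived from the edgeR test, from the day-to-day variation of the difference moderated over all genes tested. Filled points passed an adjusted p of 0.05. The 6 filled points are all below 0 and lie at groups 6 to 11, the lowest being Hoxb9 at -1.77.

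Other cell type markers differed in the same comparison. Of 12 fibroblast markers, 6 were lower in OSK, where 14% of all genes were lower in OSK and 16.8% higher. The summed levels that follow cover all days of an arm, and OSK day 0 is not part of the comparison. Fibroblast markers summed to 1327 to 7165 TPM in OSK, against 5399 to 12790 TPM in GFP. The 8 pluripotency markers summed to 0.67 to 770 TPM in OSK, against 0.8 to 1.36 TPM in GFP, where Dppa5a was at 0 in every library. The 7 neural markers summed to 193 to 280 TPM in OSK, against 95.2 to 114 TPM in GFP, where Sox1, Pax6 and Elavl3 were at 0 throughout. The 5 endothelial markers summed to 8.39 to 111 TPM in OSK, against 5.96 to 7.07 TPM in GFP. The macrophage, epithelial and skeletal muscle sums overlapped between these arms. The part of cell mixture in the Hox differences was not tested.

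Over the days of OSK, Hox genes moved both ways. Hoxa5, a gene of the lung and neck region, was at 6.4, 11.6, 22.2, 33.9 and 46.7 TPM on days 0, 1, 3, 5 and 7, increasing at each step. Its fitted slope was 0.29 log2 units per day (SE 0.05, adjusted p = 0.00193 by edgeR). Hoxa9 was at 5.67, 8.29, 15.2, 16.9 and 24.8 TPM on the same days and likewise increased at each step (slope 0.27, SE 0.05, adjusted p = 0.00183 by edgeR). Hoxa2, which gives the second branchial arch its identity, was at 2.88, 3.02, 8.55, 10.6 and 14.2 TPM and rose by 0.24 per day (SE 0.08, adjusted p = 0.0264 by edgeR). Hoxb7 was at 10.7, 19.7, 28.9, 29.6 and 42.5 TPM and rose by 0.14 per day (SE 0.05, adjusted p = 0.0322 by edgeR). Hoxa5 and Hoxa9 stayed past the threshold in each of 20 alternatives, whereas Hoxb7 did not pass without day 0, day 1 or day 7 of OSK and Hoxa2 did not pass without day 1, day 5 or day 7 of OSK.

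The slopes that fell in OSK were those of Hoxd11 (-0.51 log2 per day, adjusted p = 0.0158), Hoxc9 (-0.25, adjusted p = 0.0377), Hoxb9 (-0.22, adjusted p = 0.0173), Hoxd8 (-0.19, adjusted p = 0.00913), Hoxc10 (-0.18, adjusted p = 0.0441) and Hoxc5 (-0.17, adjusted p = 0.0256), all by edgeR. Hoxb9 in OSK was at 23.3, 21.5, 20.7, 16.4 and 13.3 TPM, lower at each step. Hoxd11, a gene of the forearm and spine, was at 1.28, 0.68, 2.46, 0.46 and 0 TPM, with 15 counts or fewer in each of these libraries and none on day 7, which allows up to 0.195 TPM. Hoxd8 was at 7.35, 15.4, 12.6, 8.26 and 5.81 TPM and Hoxc5 at 13.1, 29.3, 26.7, 18.8 and 12.3 TPM, both highest on day 1 and lowest on day 7. Hoxc9 was at 8.44, 3.93, 4, 3.87 and 3.82 TPM, where day 0 was high and the other days were alike. Of 32 Hox genes tested, 4 rose, or 12.5%, and 6 fell, or 18.8%, where 21.5% of all 13848 genes rose and 24% fell, so neither share stood above the background. Without OSK day 0 the falls of Hoxb9, Hoxc9 and Hoxc10 did not pass, without OSK day 7 those of Hoxc5 and Hoxd11 did not, and without OSK day 5 those of Hoxc5, Hoxc9 and Hoxc10 did not.

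The falls depended on the scale. On log2(TPM + 1) with limma, 8 Hox genes rose and 0 fell, where 28.8% of all genes rose and 9.58% fell and the median slope of all genes was 0.07. With the trend on GC content removed, 8 rose and 1 fell, Hoxd11, where 18.3% of all genes rose and 15.4% fell. Hoxa2, Hoxa5, Hoxa9 and Hoxb7 were among the risers on each of these scales. Without OSK day 0 and GFP day 1, 4 of 32 rose (Hoxa2, Hoxa5, Hoxa9 and Hoxc8) and 2 fell (Hoxc5 and Hoxd8), where 11.9% of all genes rose and 12.9% fell.

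**Figure D3:**
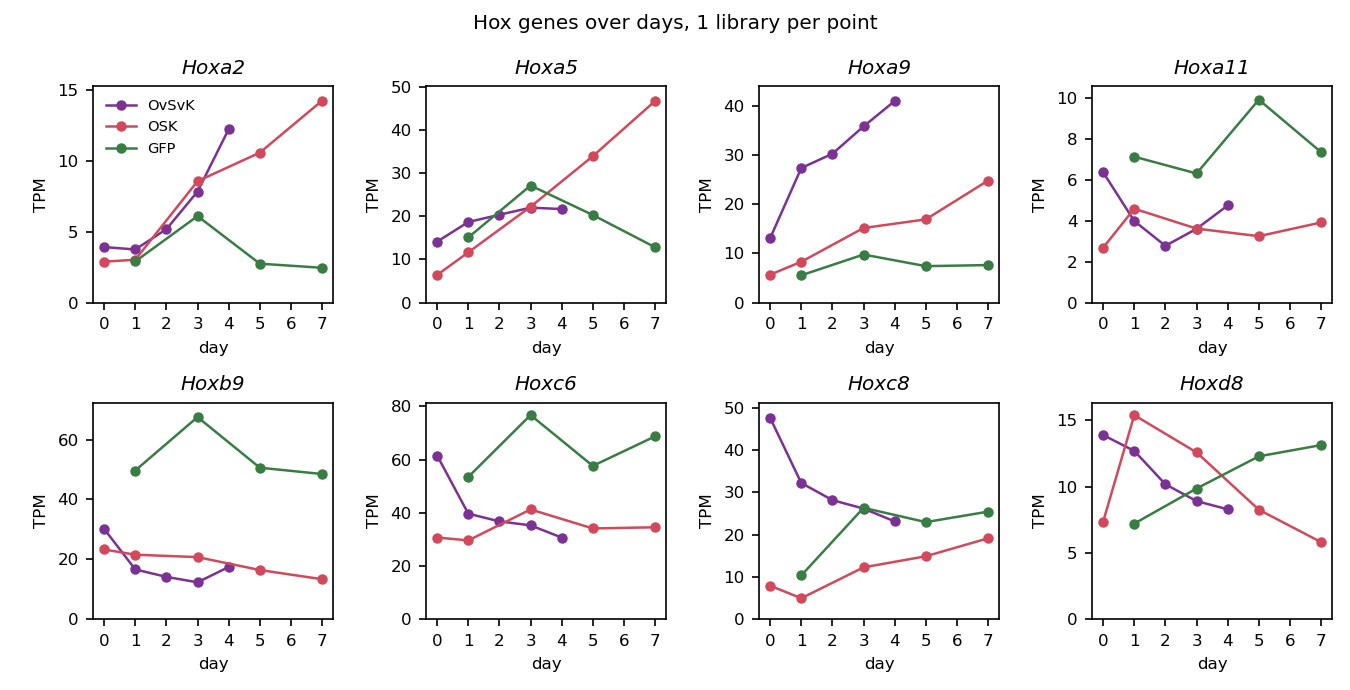
TPM of 8 Hox genes by day in OvSvK, OSK and GFP, with 1 library per point and the lines joining the days of an arm. In OSK Hoxa5 ends at 46.7 TPM and Hoxa9 at 24.8 TPM on day 7, whereas Hoxb9 and Hoxc6 lie highest in GFP on days 1 and 3, which all 3 arms share.

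In GFP 1 of 32 Hox genes changed over days: Hoxc5 fell to 10.1 TPM on day 7, against 28.7 TPM on day 1 (slope -0.27 log2 per day, SE 0.06, adjusted p = 0.044 by edgeR). Over all genes 2.07% rose and 2.73% fell in GFP, and the call on Hoxc5 was lost in 12 of 20 alternatives, among them without GFP day 1, day 5 or day 7. The slope itself differed between OSK and GFP for 2 of 32 Hox genes tested, 1 higher and 1 lower in OSK, or 3.12% each. Hoxa5 rose in OSK while its GFP values were 15.1, 27.1, 20.3 and 12.8 TPM, a difference of slopes, OSK minus GFP, of 0.39 log2 per day (SE 0.09, adjusted p = 0.0318 by edgeR). Hoxd8 was at 15.4, 12.6, 8.26 and 5.81 TPM in OSK on days 1, 3, 5 and 7, against 7.21, 9.86, 12.3 and 13.1 TPM in GFP on the same days, a difference of -0.30 per day (SE 0.08, adjusted p = 0.0416 by edgeR). Its highest OSK value was on the first of these days and its highest GFP value on the last. Over all genes 2.85% had a higher and 3.38% a lower slope in OSK, so both Hox shares were near the background. Leaving out OSK day 5, OSK day 7, GFP day 1, GFP day 5, GFP day 7, OvSvK day 2 or OvSvK day 3 ended both calls, and Hoxd8 was called in 5 of 20 alternatives.

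On the last day all Hox genes at least 2-fold higher in OSK than in GFP lay in the Hoxa cluster. OSK day 7 and GFP day 7 are 1 library each, so these are values without a test. Of 23 Hox genes with at least 5 CPM (library-scaled counts, with TMM factors) in either library, 7 were at least 2-fold higher in OSK, where 22.5% of all genes were, and 4 were at least 2-fold lower, where 19.7% of all genes were. Among the 7 were Hoxa2, Hoxa3, Hoxa4, Hoxa5, Hoxa7 and Hoxa9. Hoxa2 was at 14.2 TPM in OSK day 7, against 2.45 TPM in GFP day 7, a log2 ratio of 2.37 in scaled counts, and Hoxa9 was at 24.8 TPM, against 7.62 TPM, a log2 ratio of 1.90. The 4 lower were Hoxb9 (log2 ratio -1.96), Hoxd8 (-1.29), Hoxc6 (-1.07) and Hoxa11 (-1.06). On the TPM scale, 6 were higher (Hoxa3 no longer) and 2 lower (Hoxb9 and Hoxd8), where 24.6% of all genes were higher and 17.3% lower.

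In OvSvK, Hoxa2 and Hoxa9 were highest on the last of its days as well. Hoxa2 was at 3.91, 3.74, 5.17, 7.82 and 12.2 TPM and Hoxa9 at 13.1, 27.3, 30.2, 35.8 and 40.9 TPM on days 0, 1, 2, 3 and 4, and neither slope passed. The slopes that passed were those of Hoxc6, at 61.5, 39.6, 36.8, 35.2 and 30.7 TPM, which fell by 0.33 log2 units per day (SE 0.09, adjusted p = 0.0389 by edgeR), and of Hoxd8, at 13.9, 12.7, 10.2, 8.91 and 8.29 TPM, which fell by 0.30 per day (SE 0.08, adjusted p = 0.0429 by edgeR). Both were highest on day 0 and lowest on day 4. OvSvK day 0 also stood apart in base composition, with the 20% of genes of lowest GC content at -0.19 on the log2 scale against the mean of the 20 libraries, while OvSvK days 1 to 4 lay between 0.31 and 0.52. Its scaling factor was 0.854, against 0.983 to 1.17 on days 1 to 4, and its part in these slopes was not tested beyond leaving it out. The pair were 2 of 32 Hox genes tested, or 6.25%, where 5.81% of all genes fell and 4.49% rose. Neither passed without OvSvK day 0, day 2, day 3 or day 4, OSK day 5, GFP day 5 or GFP day 7. On log2(TPM + 1) with limma Hoxa9 rose and 0 fell, where 9.27% of all genes rose and 2.89% fell and the median slope of all genes was 0.11, and without OSK day 0 and GFP day 1 there were 5 falls and 0 rises, where 12.8% of all genes fell and 9.58% rose.

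The days that OvSvK shares with OSK are 0, 1 and 3. None of 30 Hox genes tested passed an adjusted p of 0.05 by edgeR, and none of 12910 genes did (0% in either direction). At an unadjusted p under 0.05 there were 4 Hox genes and 23.2% of all genes. Hoxc8 was at 47.7, 32.2 and 26.2 TPM in OvSvK, against 7.9, 4.94 and 12.2 TPM in OSK, without overlap (log2 difference 1.88, SE 0.41, adjusted p = 0.0662 by edgeR). Hoxc8 passed without day 0 and without day 3. DESeq2 called Hoxc8 alone among the members, where it called 11% of all genes higher and 3.73% lower. Hoxd13 was at 1.71, 2.91 and 1.09 TPM in OvSvK, against 0.11, 0.3 and 0.34 TPM in OSK, also without overlap (log2 difference 2.72, SE 0.63, adjusted p = 0.0721 by edgeR), and it passed without day 3. For Hoxb9 the log2 difference was -0.49 (SE 0.33), a size that these 6 libraries do not resolve from 0.

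The slopes of OvSvK and OSK did not differ by the test for any of 32 Hox genes, nor for any of all genes (0% in either direction). At an unadjusted p under 0.05 there were 5 Hox genes and 12.1% of all genes, and DESeq2 called 1.41% of all genes higher and 1.52% lower. OvSvK day 4 and OSK day 7, the last day of each course, were set side by side as single libraries of different ages. Of 25 Hox genes in range, Hoxa6, Hoxb3 and Hoxd3 were at least 2-fold higher in OvSvK, and Hoxa5 and Hoxb7 at least 2-fold lower, where 10.6% of all genes were higher and 9.68% lower. Against GFP day 7, OvSvK day 4 had 5 higher (among them Hoxa2, Hoxa3, Hoxa9 and Hoxb3) and 4 lower (Hoxb7, Hoxb9, Hoxc6 and Hoxd8) of 24 in range, where 21.6% of all genes were higher and 21.6% lower. On the TPM scale these became 8 higher and 2 lower, Hoxb9 and Hoxc6, where 28.7% of all genes were higher and 15.1% lower, and the median log2 ratio of all genes was 0.32 on that scale and -0.04 in scaled counts. OvSvK and OSK here share the GFP day 7 library as their control.

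On days 1 and 3 the same kind of single-library comparison was made between OvSvK and GFP. On day 1, 5 of 22 Hox genes in range were at least 2-fold higher in OvSvK (Hoxa9, Hoxb3, Hoxc8, Hoxc9 and Hoxd3) and 5 lower (Hoxa7, Hoxa11, Hoxb7, Hoxb8 and Hoxb9), where 25.6% of all genes were higher and 16.9% lower. On the TPM scale 5 were higher and 1 lower, Hoxb9, where 30.1% of all genes were higher and 9.37% lower. On day 3, 4 of 25 were higher (among them Hoxa9, Hoxb4 and Hoxd3) and 3 lower (Hoxb7, Hoxb9 and Hoxc6), where 22.4% of all genes were higher and 17.6% lower. Hoxb9 was thus lower, and Hoxa9 higher, in OvSvK on days 1, 3 and 4 against GFP days 1, 3 and 7. Each of these pairs crosses the library sets, so arm and set cannot be told apart.

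The omissions ask which genes depend on a component of the medium, set against OSK on days 3 and 7. Without GSK3 inhibitors, 7 of 30 Hox genes tested were higher than in OSK, where 9.97% of all genes were. Hoxb3, an anterior gene of the hindbrain and neck, was at 19.1 and 15.3 TPM without GSK3 inhibitors on days 3 and 7, against 7.72 and 2.62 TPM in OSK (log2 difference 1.96, SE 0.37, adjusted p = 0.00645 by edgeR). Hoxd3 was at 18 and 7.38 TPM, against 4.69 and 3.16 TPM (1.60, SE 0.40, adjusted p = 0.0197 by edgeR). Both were higher without the inhibitors on each day, and both were also above OSK in the other omission arms. Hoxb3 was at 8.09 and 10.9 TPM without bFGF and 14.8 and 12.1 TPM without vitamin C. Hoxd3 was at 6.82 and 9.48 TPM without bFGF and 14.2 and 9.24 TPM without vitamin C. All omission arms lie in another library set than these OSK libraries, so arm and set cannot be told apart.

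Hoxc9, a thoracic gene, was at 11.3 and 9.36 TPM without GSK3 inhibitors, against 4 and 3.82 TPM in OSK (1.34, SE 0.32, adjusted p = 0.0157 by edgeR). Hoxb4, known for its action in blood stem cells, was at 13.1 and 7.72 TPM, against 3.93 and 4.32 TPM (1.28, SE 0.31, adjusted p = 0.0164 by edgeR). Hoxc6 (0.95, adjusted p = 0.0172), Hoxc4 (0.81, adjusted p = 0.0306) and Hoxa3 (0.80, adjusted p = 0.0484), all by edgeR, were also higher, with Hoxc6 at 87.2 and 73.4 TPM, against 41.2 and 34.5 TPM in OSK. Hoxa2 was at 11.5 and 16.7 TPM without GSK3 inhibitors, against 8.55 and 14.2 TPM in OSK, and did not pass.

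Of 30 Hox genes tested, 7 were higher without GSK3 inhibitors, or 23.3%, where 9.97% of all 14191 genes were higher, and 1 was lower, or 3.33%, where 13.3% of all genes were lower. By position, 3 of 6 anterior, 3 of 14 central and 1 of 10 posterior genes were higher, and the median log2 difference of the 30 was 0.57, against 0.01 over all genes. With the trend on GC content removed, 0 of the 30 were higher and 1 lower, where 3.32% of all genes were higher and 4.71% lower. In an edgeR model of all libraries 0 of 32 passed, where 0.585% of all 15035 genes were higher and 0.772% lower. The median log2 difference of the 32 in that model was 0.61. Of 12 fibroblast markers, 5 were higher without GSK3 inhibitors, with summed levels of 3034 to 3978 TPM, against 1327 to 7165 TPM over all days of OSK. Of 8 pluripotency markers, 4 of 7 tested were lower, and Lin28a was at 0 in both libraries. Their summed levels were 116 to 179 TPM on days 3 and 7, against 0.67 to 770 TPM over all days of OSK. Their part in the Hox differences was not tested.

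Without bFGF, Hoxb4 was the only Hox gene of 30 to pass, at 7.79 and 9.04 TPM, against 3.93 and 4.32 TPM in OSK (log2 difference 1.05, SE 0.30, adjusted p = 0.0474 by edgeR), where 4.71% of all genes were higher and 7.77% lower. It did not pass on log2(TPM + 1), with the GC trend removed or with DESeq2 size factors. Without vitamin C, none of 30 passed by edgeR, where 0.0423% of all genes were higher and 0.254% lower, while 7 had an unadjusted p under 0.05, where 12.6% of all genes had one. DESeq2 called 1, Hoxd3, where it called 1.11% of all genes higher and 1.31% lower. Hoxd3 was at 14.2 and 9.24 TPM without vitamin C, against 4.69 and 3.16 TPM in OSK. Among the omission arms, which lie in 1 library set, none of 30 Hox genes differed by edgeR in any of the 3 contrasts. Of all genes, edgeR called 1.41% higher and 1.67% lower between no bFGF and no GSK3 inhibitors, 2.02% higher and 5.01% lower between no bFGF and no vitamin C, and 4.66% higher and 9.29% lower between no GSK3 inhibitors and no vitamin C. At an unadjusted p under 0.05 there were 5 Hox genes and 17.2% of all genes between no bFGF and no GSK3 inhibitors. There were 2 Hox genes and 22.4% of all genes between no bFGF and no vitamin C, and 2 Hox genes and 28.3% of all genes between no GSK3 inhibitors and no vitamin C.

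**Figure D4:**
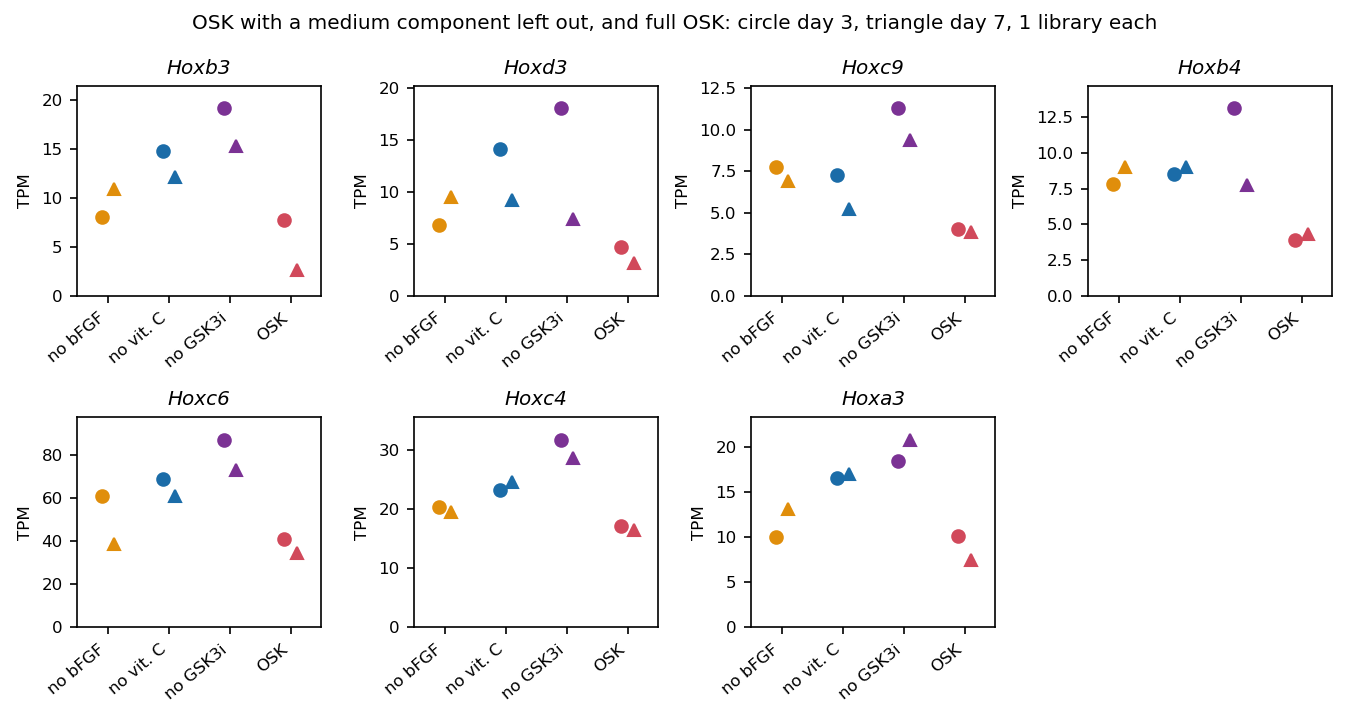
TPM of 7 Hox genes that were higher in OSK without GSK3 inhibitors than in OSK, in the 3 omission arms and in OSK, with day 3 as a circle, day 7 as a triangle and 1 library per point. Hoxb3, Hoxd3, Hoxc9, Hoxb4, Hoxc6, Hoxc4 and Hoxa3 lie higher without GSK3 inhibitors than in OSK on each day. The omission arms and OSK belong to different library sets.

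As shares of summed Hox TPM, anterior genes were higher and posterior genes lower in OSK than in GFP on matched days. Posterior genes made up 27.1, 25.4, 21.8, 18.8 and 20.2% of the summed Hox TPM of OSK on days 0, 1, 3, 5 and 7, against 28.2, 30.1, 28.4 and 29.4% in GFP on days 1, 3, 5 and 7, so that OSK was below GFP on every matched day. In OvSvK the posterior share was 30.6, 29.2, 27.7, 26.8 and 27.1% on days 0 to 4, overlapping GFP. Anterior genes made up 11.2, 9.91, 12.3, 17 and 18.6% in OvSvK and 15.3, 8.59, 12.1, 13 and 14.3% in OSK, against 6.3, 8.05, 6.41 and 6.87% in GFP, and both arms with factors were above every GFP library on all of their days. The mean paralog number, weighted by TPM, was 6.27 in OvSvK day 4 and 6.23 in OSK day 7, against 6.86 to 7.05 in GFP. These shares rest most on the abundant members of each library and were not tested. On days 1, 3, 5 and 7, anterior genes summed to 22.7, 45.2, 47.15 and 60.4 TPM in OSK. In GFP they summed to 22.5, 36.9, 24.8 and 24.4 TPM, so the anterior sums were alike on day 1. On the same days, posterior genes summed to 101, 138, 110 and 104 TPM in GFP. Hoxb9 alone gave 49.6, 67.5, 50.6 and 48.5 TPM of these. In OSK the sums were 67.1, 81.9, 67.9 and 85.6 TPM, with 21.5, 20.7, 16.4 and 13.3 TPM from Hoxb9. The lower posterior share of OSK thus rests largely on this 1 gene, and the share of the other posterior genes was not tested.

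Summed Hox TPM was 416, 352, 355, 386 and 416 in OvSvK on days 0 to 4 and 251, 264, 375, 362 and 424 in OSK on its 5 days, against 358, 458, 386 and 355 in GFP. Each omission library was above OSK of the same day, with 422 and 441 TPM without bFGF, 519.8 and 497 TPM without vitamin C and 593 and 555 TPM without GSK3 inhibitors on days 3 and 7, against 375 and 424 TPM in OSK on the same days. By cluster, the Hoxa sum was 197 TPM in OSK day 7, against 75.5 TPM in GFP day 7, whereas the Hoxc sum was 95.4 TPM in OSK day 7, against 132 TPM in GFP day 7, and the Hoxd sum was 13.8 TPM, against 24.8 TPM.

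On the authors' normalized scores, which cover 29 of the 38 members and include mESC and MEF, the end points were nearer to MEF than to mESC in their summed Hox score. Summed Hox scores were 3962 in OvSvK day 4, 5250 in OSK day 7, 4959 in GFP day 7 and 1380 in mESC, against 5997 in MEF. Each column is 1 library, and mESC and MEF were processed by the authors with an earlier RSEM version on the mm9 build. In mESC, 24 of 29 Hox genes were at least 2-fold lower than in MEF, where 27.1% of all 12897 genes were, and 2 were higher, where 26.1% of all genes were. The median log2 ratio was -4.09 for Hox genes, against 0.04 over all genes. The 2 higher in mESC were Hoxc13, with a score of 327 in mESC, against 30 in MEF, and Hoxb13, with 120, against 0. Hoxb9 kept a score of 334 in mESC, against 1284 in MEF.

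Against mESC, OSK day 7 had 22 Hox genes at least 2-fold higher and 2 lower, where 23.7% of all genes were higher and 20.7% lower. OvSvK day 4 had 23 higher and 2 lower, where 20.6% were higher and 16.7% lower, and GFP day 7 had 24 higher and 3 lower, where 29% were higher and 27.6% lower. OSK without GSK3 inhibitors on day 7 had 24 higher and 3 lower, where 26.3% were higher and 24.4% lower. Hoxb9, at 203 in OSK day 7 and 212 in OvSvK day 4, was not higher than the 334 of mESC, while GFP day 7 had 806. Against MEF, OSK day 7 had 4 Hox genes higher (among them Hoxa2, Hoxa9 and Hoxb7) and 7 lower, where 21.2% of all genes were higher and 19.5% lower. OvSvK day 4 had 3 higher (among them Hoxa9 and Hoxb4) and 5 lower, where 20.3% were higher and 18.8% lower. The lower genes shared by both were Hoxb9, Hoxc10, Hoxc13 and Hoxd8. GFP day 7 had 2 higher and 3 lower, where 12.7% were higher and 12.6% lower.

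**Figure D5:**
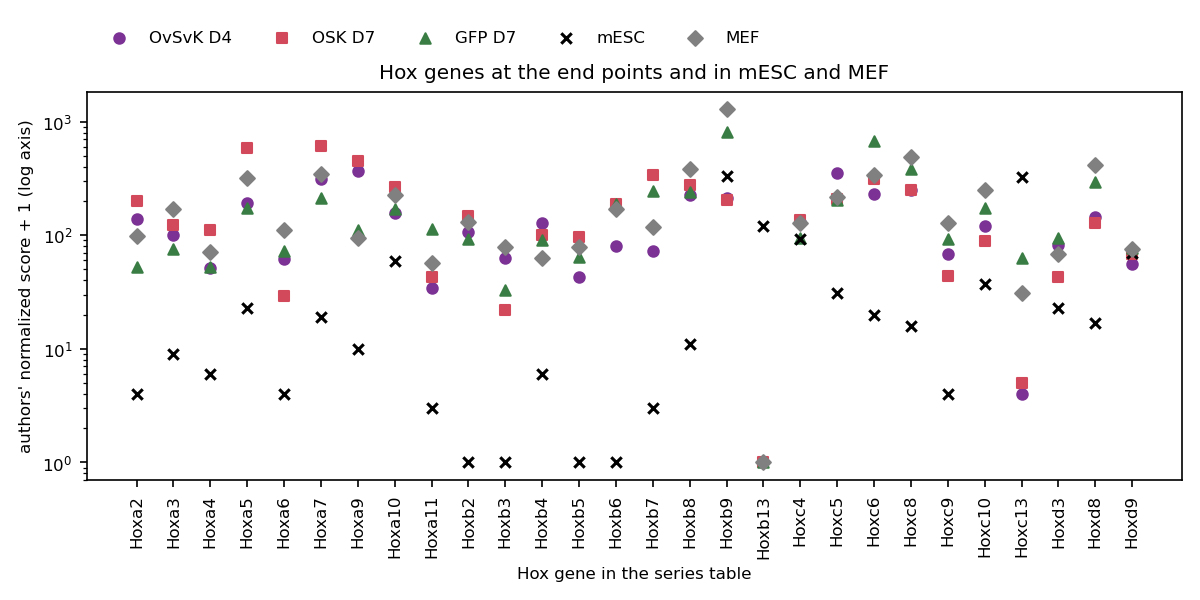
The authors' normalized score plus 1, on a log axis, of Hox genes of the series table in OvSvK day 4, OSK day 7, GFP day 7, mESC and MEF, 1 library each. The crosses of mESC lie lowest for most genes and highest for Hoxb13 and Hoxc13, and near the other points for Hoxc4 and Hoxd9.

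The partners and regulators of Hox proteins were read from lists chosen with earlier results of these data known, so their counts are descriptions. Of 9 TALE cofactors tested, Meis2 alone was higher in OSK than in GFP, at 42.6, 124, 141 and 180.4 TPM in OSK, against 23.7, 57, 56.1 and 50.6 TPM in GFP on days 1, 3, 5 and 7 (log2 difference 1.06, SE 0.21, adjusted p = 0.0166 by edgeR), and its lowest OSK value, on day 1, lay within the GFP range. Of all genes, 16.8% were higher and 14% lower in OSK than in GFP. Over the days of OSK, Meis2 rose and Meis3 fell, where 21.5% of all genes rose and 24% fell. The list's median log2 difference between OSK and GFP was 0.12, against 0.05 over all genes.

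Of 22 polycomb genes tested, whose products lay down and read repressive marks on Hox clusters, 7 were higher and 0 lower in OSK, set against GFP, where 16.8% of all genes were higher and 14% lower. Jarid2, a cofactor of PRC2, was at 15.5, 53.8, 59.3 and 86 TPM in OSK, against 4.98, 12.8, 11.5 and 12 TPM in GFP (log2 difference 2.13, SE 0.25, adjusted p = 0.00392 by edgeR), without overlap. Suz12, a core subunit of PRC2, was at 18.6, 104, 173 and 249 TPM in OSK, against 10.6, 24, 35.1 and 33 TPM in GFP (1.89, SE 0.39, adjusted p = 0.0194 by edgeR), and it was higher in OSK on each matched day. Rnf2, Ezh1, Phc1, Ezh2 and Cbx2 were the other 5. Without GSK3 inhibitors 5 polycomb genes were lower than in OSK (Suz12, Mtf2, Bmi1, Rnf2 and Eed) and 5 higher (among them Phf1, Phf19, Ring1 and Cbx7), of 22 tested, where 13.3% of all genes were lower and 9.97% higher. Suz12 was at 25 and 47.4 TPM without GSK3 inhibitors, against 104 and 249 TPM in OSK on days 3 and 7 (-2.26, SE 0.25, adjusted p = 0.00148 by edgeR). These arms lie in different library sets, so arm and set cannot be told apart. With the GC trend removed, 3.32% of all genes were higher and 4.71% lower in this comparison. Results under the alternatives are not reported here for single genes of these lists.

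Among 20 trithorax, retinoic acid and Cdx genes, Cdx1, an activator of Hox genes downstream of Wnt, rose over days in both arms with factors. It was at 0, 0, 1.62, 15.4 and 61.1 TPM in OvSvK on days 0 to 4 and 0, 0, 0.97, 1.44 and 10.8 TPM in OSK on days 0, 1, 3, 5 and 7, against 0, 0, 0 and 0 TPM in GFP, and it passed the test of a rise over days in OvSvK (adjusted p = 0.00177 by edgeR) and in OSK (adjusted p = 0.00169 by edgeR). Cdx1 was at 0.24 and 4.42 TPM without bFGF on days 3 and 7, 0.18 and 3 TPM without vitamin C and 0 and 0 TPM without GSK3 inhibitors, against 0.97 and 10.8 TPM in OSK. The difference between no GSK3 inhibitors and OSK passed with an adjusted p of 0.00184 by edgeR, and on day 7, where no count allows up to 0.358 TPM (3 counts), it was at least 30.1-fold lower than in OSK. Cdx2 reached 5.96 TPM in OvSvK day 4 and was at 0.19 TPM in OSK day 7 and at 0 in every GFP library. Cyp26a1, which breaks down retinoic acid, was at 7.62 and 7.99 TPM without GSK3 inhibitors, against 0.95 and 0.91 TPM in OSK (log2 difference 3.01, SE 0.54, adjusted p = 0.00514 by edgeR). For Cdx1 and Cyp26a1 too, the omissions and OSK lie in different library sets, so arm and set cannot be told apart. Of the 16 genes of this list tested between OSK and GFP, Kdm6a and Dot1l were higher in OSK and Rxra was lower. Of all genes, 16.8% were higher and 14% lower in that comparison.

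Of 28 other transcription factors of limb, trunk and branchial position tested between OSK and GFP, 7 were lower in OSK (among them Osr2, Prrx2, Osr1 and Tbx5), where 14% of all genes were lower, and 2 were higher (Tbx18 and Pax9), where 16.8% of all genes were higher. The list had a median log2 difference of -0.62, against 0.05 over all genes. Prrx2, a gene of limb and facial mesenchyme, was at 7.13, 1.34, 0.65 and 1.13 TPM in OSK, against 38.1, 37.7, 18.9 and 32.2 TPM in GFP (-4.12, SE 0.53, adjusted p = 0.00513 by edgeR), without overlap. Tbx5, the forelimb determinant, was at 1.66, 2.32, 1.71 and 0.77 TPM in OSK, against 3.94, 5.14, 3.54 and 3.52 TPM in GFP (-1.57, SE 0.29, adjusted p = 0.0142 by edgeR), also without overlap. Over days, 10 of 31 fell and 0 rose in OvSvK, where 5.81% of all genes fell and 4.49% rose. In OSK 14 of 31 fell and 2 rose, where 24% of all genes fell and 21.5% rose. Without GSK3 inhibitors 10 were higher than in OSK, among them Osr1, Pitx1 and Tbx5, and 2 were lower, where 9.97% of all genes were higher and 13.3% lower. This comparison crosses the library sets as well.

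Few of the listed transcripts within the clusters that encode no Hox protein could be tested. Of 22 listed, 12 had a row in the tables and 3 were tested between OSK and GFP, of which Hoxb3os, an antisense transcript across Hoxb2 and Hoxb3, was higher in OSK at 9.53, 16.2, 13.2 and 19.6 TPM, against 4.97, 8.55, 8.55 and 7.51 TPM in GFP (log2 difference 0.79, SE 0.23, adjusted p = 0.0462 by edgeR). Hotair was under 0.3 TPM in every library. Strand use in counting is not given in the sources used here, so reads of Hoxb3os and of its sense partners may not be separated. Of the 38 Hox genes, 22 overlap another annotated gene, 13 of them on the opposite and 14 on the same strand, among them Hoxa3, whose annotated span takes in Hoxa4, Hoxa5 and Hoxa6, and Hoxc5, whose span takes in Hoxc6, Hoxc8, Hoxc9 and Hoxc10. How reads were shared among these was set by RSEM, and their values are uncertain to that extent. Of 17 genes beside the clusters tested between OSK and GFP, 4 were higher in OSK (Skap2, Hnrnpa1, Cbx5 and Snx10) and 0 lower, where 16.8% of all genes were higher and 14% lower. Over the days of OSK 9 of 17 rose and 0 fell, where 21.5% of all genes rose and 24% fell.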

How the data were processed

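RNA sequencing libraries of 20 fibroblast cultures and 2 further samples were used as deposited. Per the submitters' processing notes, RSEM 1.2.4 with mm10 and RSEM 1.1.21 with mm9 were used. The authors deposited expected counts and TPM per gene for each of the 20 libraries, and, for 12897 genes, a table of whole-number scores in which every column has a median of 374 and a maximum of 58542, so the scores were normalized to 1 common form per the deposited values. Of 24130 gene IDs, 12897 were named by that table, 10788 by the annotation and 445 by neither.

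Expected counts were rounded to whole numbers and tested with edgeR 4.0.16 (R 4.3.3; TMM scaling, filterByExpr with a minimum of 10 counts, quasi-likelihood test, Benjamini-Hochberg adjustment over all genes tested, threshold 0.05). Paired comparisons carried the day as a block, with 3 residual degrees of freedom for OSK and GFP, 2 for OvSvK and OSK and 3 for OSK and the omissions. Changes per day were fitted as 1 line per arm, with 8. Because each arm and day is 1 library, the error is the day-to-day variation of a difference or the departure from a line, not the spread of replicates. The quasi-likelihood test moderates this error over all genes tested. Single libraries and scores were compared by ratio, with at least 5 CPM in 1 library and 2-fold as limits and no test; scores had 1 added. The procedure was tested on simulated counts that had no GC trend and no library sets. Their spread was smaller than the one fitted here, except for the omissions. That test therefore gives no error rate for the calls in these libraries. Alternatives were DESeq2 size factors, no filter, DESeq2 1.42.0, limma 3.58.1 on log2(TPM + 1), removal of a loess trend on GC content (span 0.5), leaving out each library or day, leaving out OSK day 0 and GFP day 1, and a model of all libraries. The loss of omission days in that model was added after seeing the data. Library totals of 7872278 to 20720724 counts set the counting precision; Poisson intervals (95%) and limits for 0 counts cover counting error only. The Hox members, the other gene lists and the tests were chosen with earlier results of these data known. Members named with values were those past the threshold, the 3 most abundant of each cluster and those under 0.5 TPM throughout; from other lists, up to 4 of the smallest p per comparison. Members named outside this rule, such as Hoxa9, Hoxb1, Hoxc13 and Hoxd13, were chosen after their values were seen. Some genes are counted in the totals and are not reported here by name.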

Additional observations from a re-analysis of the deposited data

Results flagged for a closer look

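The change per day of Hoxa5 differed between OSK and GFP by 0.39 log2 units (SE 0.09, adjusted p = 0.0318 by edgeR with Benjamini-Hochberg adjustment), with increases at each step of OSK and no call in GFP. The change per day of Hoxd8 differed by -0.30 log2 units (SE 0.08, adjusted p = 0.0416 by edgeR), with OSK lower at each step from day 1 and GFP higher at each step. Both were picked out by the test of the difference of slopes itself. Of 32 Hox genes tested, 1 was higher and 1 lower, or 3.12% each. Of all genes 2.85% were higher and 3.38% lower, so both Hox shares were near the background. Hoxa5 was kept in 13 of 20 alternatives and Hoxd8 in 5 of 20.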

How the results depend on the processing

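For OSK against GFP, 6 Hox genes passed; 11 passed in the model of all libraries, and 1 to 11 with 1 day left out. For OvSvK against OSK, 0 passed; 1 passed without the low-count filter, with DESeq2 and with the GC trend removed, 4 in the model of all libraries, and 0 to 2 with 1 day left out. For the change per day in OSK, 10 passed, with 6 to 10 when 1 library was left out and 6 without OSK day 0 and GFP day 1. For OvSvK, 2 passed, with 1 by limma and 1 with the GC trend removed, 5 without OSK day 0 and GFP day 1, and 0 to 4 with 1 library left out. For GFP, 1 passed, with 2 by DESeq2, 0 without the filter, by limma, with the GC trend removed and without OSK day 0 and GFP day 1, and 0 to 2 with 1 library left out. For the difference of slopes between OSK and GFP, 2 passed, with 5 by DESeq2, 1 without the filter, 1 without OSK day 0 and GFP day 1, and 0 to 3 with 1 library left out. Without bFGF, 1 passed, with 0 under DESeq2 size factors, limma, the GC trend removed and the model of all libraries. Without vitamin C, 0 passed and 1 by DESeq2. Without GSK3 inhibitors, 8 passed, with 1 when the GC trend was removed and 0 in the model of all libraries. For the omissions a day was left out only in the model of all libraries. For bFGF and for GSK3 inhibitors, 0 passed in that model with both days and with either left out, so no call could be lost there. Hox genes past 2-fold between OvSvK day 1 and GFP day 1 numbered 10, and 6 on the TPM scale. The posterior share was 27.1% in OvSvK day 4 (25.5% on the authors' scores), 20.2% in OSK day 7 (22.4% in CPM, 22.2% on the scores) and 29.4% in GFP day 7 (33.3% in CPM, 32.3% on the scores). No Hox gene called in the main fits changed its direction under these alternatives, whereas the balance of rises and falls did change. Over the days of OSK, 4 rose and 6 fell in the main fit, 8 and 0 with limma, and 8 and 1 with the GC trend removed. Over the days of OvSvK, 0 rose and 2 fell in the main fit, and 1 and 0 with limma. Where a value moved, the cause was not tested. The omission days left out were chosen after seeing the data. No paired analysis was possible because the labels give no replicate numbers, which concerns pairing by replicate number alone: arms were compared with the matched day as a block. Low counts limit Hoxb1, Hoxc13, Hoxd10, Hoxd11 and Hoxd13.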
